A study of Mus musculus with 4 samples.

Results

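The mitochondrial ribosomal proteins are the nuclear-encoded protein subunits of the ribosome inside mitochondria. They were taken as every array probe whose gene symbol in the scanner table was Mrpl (large subunit) or Mrps (small subunit) followed by a digit. This gave 125 of 45281 probes and 73 of 28908 gene symbols, 45 of them Mrpl and 28 Mrps. The rule reads gene symbols only. Total RNA came from small intestinal tumours of 2 C57BL/6J mice, both ApcMin/+ and both 30 weeks old. ApcMin/+ animals carry a truncating germline mutation in a single copy of Apc, a brake on Wnt signalling, and grow many intestinal adenomas. From each mouse, 3 small tumours with a diameter of up to 2 mm went into one tube and 3 large tumours of 4 to 5 mm into another, and each tube was hybridised to an Illumina bead array. The 4 arrays are thus a small and a large pool from mouse 1 and a small and a large pool from mouse 2, with no untumoured mucosa and no wild-type animal among them. The tumours were whole, so fewer cells of a type and less RNA per cell cannot be told apart.

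Mitochondria make a small set of inner-membrane proteins, all core parts of the respiratory chain and of ATP synthase, on ribosomes of their own. The rRNAs of this ribosome come from mitochondrial DNA, while every one of its proteins is encoded in the nucleus, translated in the cytosol and imported. Part of these proteins descend from bacterial ribosomal proteins, and others have no bacterial counterpart and were added during the evolution of mitochondria. Nuclear factors with known sites in promoters of mitochondrial genes include NRF1, the ETS factor GABPA and YY1, while MYC binds E-boxes and drives ribosome production in many growing tissues.

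Promoters of 3 members are shown because they span the responses seen: Mrpl52 and Mrpl14 had the largest differences between large and small tumours in mouse 2, and Mrps27 was lower in large tumours in both mice. The sequences are RefSeq's for the mouse assembly GRCm38.p6, all on the plus strand, with 250 bases before and 50 from the annotated gene start. Mrpl52 lies at chr14:54426659-54426958, Mrpl14 at chr17:45686099-45686398 and Mrps27 at chr13:99344536-99344835. Capitals mark matches, on either strand, to CCGGAAG (ETS factors; CTTCCGG on the other strand), AAGATGG (YY1; CCATCTT), GCGCATGC (NRF1; GCATGCGC) or CACGTG (E-box, its own reverse complement).
Mrpl52: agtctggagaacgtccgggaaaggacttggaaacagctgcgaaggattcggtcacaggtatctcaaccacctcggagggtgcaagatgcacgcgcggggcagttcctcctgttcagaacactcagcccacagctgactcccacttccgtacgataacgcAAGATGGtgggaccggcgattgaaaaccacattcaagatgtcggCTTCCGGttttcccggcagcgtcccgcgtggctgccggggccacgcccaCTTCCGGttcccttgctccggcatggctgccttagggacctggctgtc
Mrpl14: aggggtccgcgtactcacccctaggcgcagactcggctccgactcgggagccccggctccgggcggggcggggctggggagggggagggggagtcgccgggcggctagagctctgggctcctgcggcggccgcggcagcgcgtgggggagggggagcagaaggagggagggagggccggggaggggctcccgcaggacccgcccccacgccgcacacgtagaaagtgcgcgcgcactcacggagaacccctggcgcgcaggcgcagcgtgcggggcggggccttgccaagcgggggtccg
Mrps27: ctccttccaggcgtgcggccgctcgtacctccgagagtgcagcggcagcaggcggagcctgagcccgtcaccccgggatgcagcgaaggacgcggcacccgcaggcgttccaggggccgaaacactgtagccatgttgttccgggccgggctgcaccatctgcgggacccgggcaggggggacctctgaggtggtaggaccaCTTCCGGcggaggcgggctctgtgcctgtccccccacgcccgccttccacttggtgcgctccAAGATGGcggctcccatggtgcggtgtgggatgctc
The Mrpl52 window held the ETS letters at 2 places and the YY1 letters at 1. In the Mrps27 window each of these stood once. None of the 4 motifs occurred in the Mrpl14 window.

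Between 18969 and 19990 probes per array were detected, meaning that their detection p-value against the array's negative controls was under 0.05. One array, that of the small pool of mouse 2, was unlike the rest: its log2 values correlated with theirs at r = 0.940 to 0.952 across genes, against 0.963 to 0.978 among the other 3. Values below are log2 of background-corrected, quantile-normalized intensity, with the small pool given before the large one, and a difference is large minus small. Of the 73 genes, 68 had a tested probe (detected on at least 2 arrays), 41 Mrpl and 27 Mrps, and for each of them the brightest probe, which stands for the gene, was detected on all 4 arrays. The 5 genes without a tested probe were Mrpl19, Mrpl21, Mrpl32, Mrpl45 and Mrps14. Of their 7 probes, a single one, for Mrpl45, was detected on a single array.

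Mitochondrial ribosomal protein transcripts were at nearly equal levels in small and large tumours of mouse 1 and at higher levels in large than in small tumours of mouse 2. The median level over the 68 genes was 10.10 in small and 10.08 in large tumours of mouse 1, and 9.42 and 10.25 in mouse 2. The small pool of mouse 2 was the low one, and the other 3 pools lay close together. In mouse 1 the differences had a median of -0.027 and ran from -0.40 for Mrpl39 to 0.37 for Mrps5. Within 0.25 of 0 lay 61 of 68 members and 7308 of all 13906 genes. In mouse 2 the median was 0.73, a 1.66-fold higher level in large tumours, and the differences ran from -0.49 for Mrpl35 to 1.70 for Mrpl52. Over all 13906 genes tested the medians were 0.027 in mouse 1 and 0.012 in mouse 2.

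In mouse 1, 29 members were higher in large tumours, beside 53.3% of all genes. In mouse 2, 62 of 68 were higher, beside 50.7% of all genes, and 17 were at least 2-fold higher, beside 10.1%. Members higher in large tumours in both mice numbered 27 (30.7% of all genes), and 4 were lower in both (26.7% of all genes). Both large pools lay above both small pools for 25 members (22.2% of all genes) and below them for 3 (17.6%).

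No member passed a test of large against small tumours. With limma's moderated test and Benjamini-Hochberg adjustment over 20214 probes, 0 of the 108 tested member probes had an adjusted p under 0.05, and 0% of all probes did. At an unadjusted p under 0.05 there were 0 member probes and 1563 probes in all (7.73%). A fit that blocked on the animal called 120 probes (0.594% of all), again with 0 members, whose smallest adjusted p was 0.435. The unadjusted count with the block was 3 members (Mrpl14, Mrpl52 and Mrps16) and 11.0% of all probes. With 2 arrays per size, the exact permutation test of a single gene cannot go below p = 0.333 (two-sided).

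**Figure D1:**
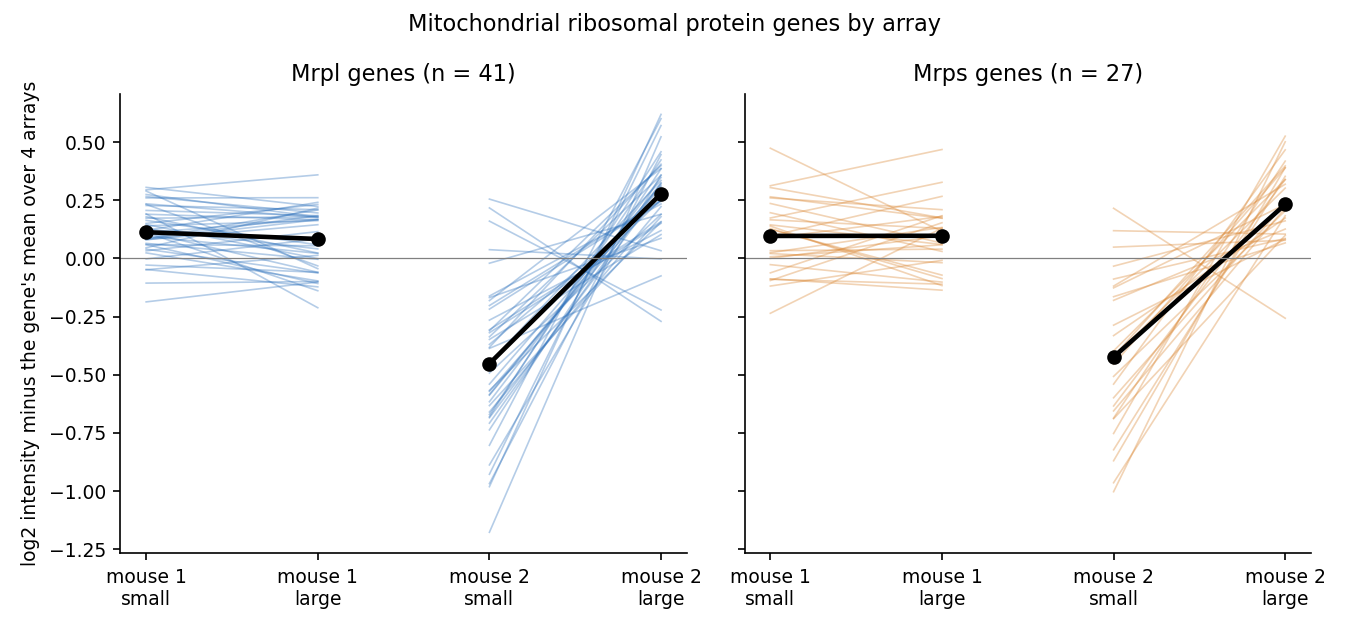
Log2 intensity of each tested Mrpl (left) and Mrps (right) gene minus that gene's mean over the 4 arrays, by array; thin lines join the small and large pool of a mouse for a gene, and black points are medians over genes. The lines of mouse 1 are close to level, while in mouse 2 the large pool is the higher one for 62 of 68 genes.

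The comparison between animals within one tumour size located the low pool. In small tumours, mouse 2 minus mouse 1 had a median of -0.60 over the members, with 59 of 68 below 0 and a range from -1.47 to 0.44. In large tumours the median difference between the mice was 0.16, with a range from -0.28 to 0.58. All genes had medians of 0.0031 and 0.015. The small pool of mouse 2 was the lowest of the 4 arrays for 58 of 68 members, against 34.7% of all genes, and the large pool of mouse 2 was the highest for 49, against 28.3%. Over the other 3 arrays a member's range had a median of 0.26, and their mean exceeded the small pool of mouse 2 by a median of 0.60, or 1.52-fold. Over all genes these medians were 0.45 and 0.0090. For 43 members the gap from the small pool of mouse 2 to the next array was wider than the range of the other 3, which held for 16.1% of all genes. When the small pool of mouse 2 was left out, after it was seen to be low, both large pools were set against the small pool of mouse 1. The member median was then 0.081, against 0.35 with all 4 arrays. This contrast mixes tumour size with animal.

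**Figure D2:**
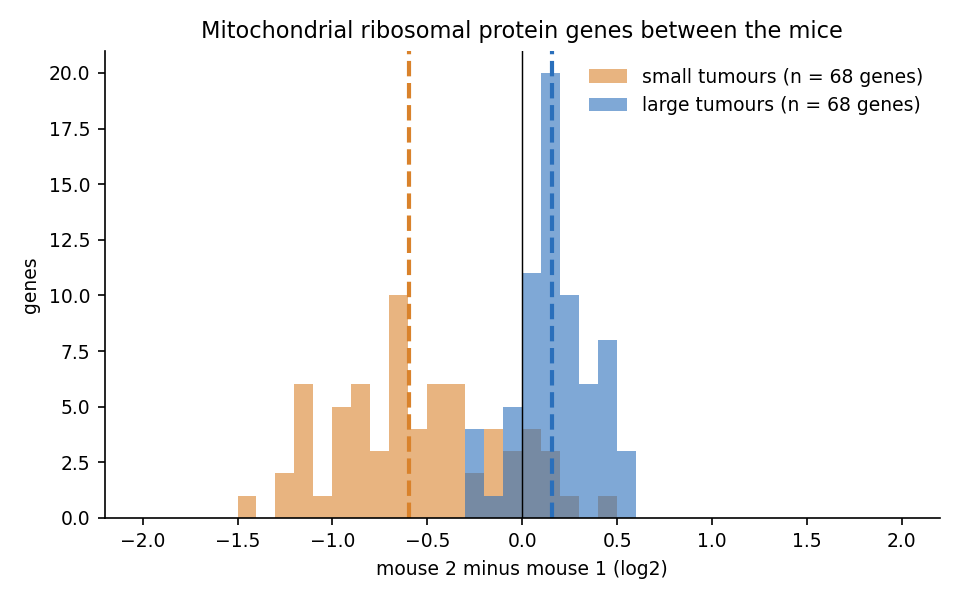
Histogram of mouse 2 minus mouse 1 (log2, horizontal axis) over the 68 tested genes, for small and for large tumours; the vertical axis counts genes and dashed lines are medians. Small tumours centre at -0.60 and large tumours at 0.16.

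The large-subunit proteins with bacterial homologues numbered 26 and had median differences of -0.014 in mouse 1 and 0.79 in mouse 2. Mrpl14, which sits at the interface with the small subunit, had log2 levels of 10.04 and 10.16 in mouse 1 and 8.93 and 10.53 in mouse 2. The within-animal differences were 0.12 and 1.60, and the group means were 9.48 ± 0.78 (SD, n = 2) for small tumours and 10.34 ± 0.27 (SD, n = 2) for large ones. Both large pools lay above both small pools, but the small pools were over 1 log2 unit apart, and limma gave 0.86 ± 0.42 (SE, n = 2) with an adjusted p of 0.666, or 0.435 with the block. Mrpl23, one of the proteins around the exit of the peptide tunnel, measured 11.10 and 11.10 in mouse 1 and 9.87 and 11.29 in mouse 2. Its 2 pools of mouse 1 were equal to 0.0012, and its small pool of mouse 2 was the low one. For Mrpl17, another protein near the tunnel exit, the levels were 11.55 and 11.64 in mouse 1 and 10.80 and 11.89 in mouse 2. Mrpl27, whose bacterial homologue reaches toward the peptidyl transferase centre, gave 10.07 and 10.07 in mouse 1 and 9.16 and 10.28 in mouse 2. In each of Mrpl23, Mrpl17 and Mrpl27 the pools of mouse 1 and the large pool of mouse 2 lay closer to one another than any of them did to the small pool of mouse 2.

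Mrpl33 and Mrpl13, which with Mrps24 and Mrpl17 had the brightest probes of the set, followed the same order of pools. Mrpl33 measured 11.63 and 11.73 in mouse 1 and 10.93 and 11.90 in mouse 2, and Mrpl13, whose bacterial homologue joins early in subunit assembly, 11.46 and 11.54 in mouse 1 and 10.60 and 11.63 in mouse 2. Mrpl34, a short protein of the large subunit, gave 10.46 and 10.43 in mouse 1 and 9.34 and 10.84 in mouse 2, with differences of -0.024 and 1.50 that pointed opposite ways in the 2 mice. Mrpl12, the homologue of the bacterial stalk protein that recruits translation factors, had levels of 11.42 and 11.17 in mouse 1 and 11.09 and 11.55 in mouse 2. The differences of -0.25 and 0.46 had opposite signs, and the ranges of small and large tumours overlapped.

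The large-subunit proteins classed as mitochondria-specific numbered 16, Mrps18a among them although it is related to bacterial S18, with medians of -0.036 and 0.66. Mrpl52, one of them, had log2 levels of 10.99 and 11.05 in mouse 1 and 9.52 and 11.22 in mouse 2. Its group means were 10.25 ± 1.04 (SD, n = 2) for small tumours and 11.14 ± 0.12 (SD, n = 2) for large ones, and the difference in mouse 2 was the largest of all members, 1.70, or 3.25-fold. Both large pools lay above both small ones, yet the spread between the small pools exceeded the mean difference, and limma gave 0.88 ± 0.48 (SE, n = 2) with an adjusted p of 0.684, or 0.437 with the block. Mrpl44, which carries a ribonuclease III-like domain and in humans is mutated in a cardiomyopathy, measured 8.57 and 8.40 in mouse 1 and 8.31 and 8.76 in mouse 2. Its differences were -0.17 and 0.45. Mrps30, placed in the large subunit by structures despite its name, had 10.21 and 10.19 in mouse 1 and 10.18 and 10.62 in mouse 2, so the large pool of mouse 2 was the high one and the others were nearly equal.

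The small-subunit proteins with bacterial homologues numbered 15 and had medians of -0.049 in mouse 1 and 0.87 in mouse 2. Mrps16, which in humans is mutated in a respiratory chain deficiency, had levels of 9.74 and 9.90 in mouse 1 and 8.57 and 10.07 in mouse 2. Its differences were 0.15 and 1.50, and limma gave 0.83 ± 0.42 (SE, n = 2) with an adjusted p of 0.675, or 0.443 with the block. Mrps12, the homologue of the bacterial protein at the decoding centre, measured 11.29 and 11.12 in mouse 1 and 10.34 and 11.62 in mouse 2, lower in large tumours of mouse 1 and higher in those of mouse 2. Its other tested probe was nearly level in mouse 1, at 11.13 and 11.11, with 9.82 and 11.26 in mouse 2. Mrps21 gave 10.45 and 10.61 in mouse 1 and 9.17 and 10.32 in mouse 2. For Mrps24, the homologue of bacterial S3 at the mRNA entry, the values were 12.02 and 12.12 in mouse 1 and 11.25 and 12.35 in mouse 2. In all 4 of these genes the small pool of mouse 2 was the lowest array. Mrps28 gave 9.73 and 9.60 in mouse 1 and 8.56 and 9.82 in mouse 2, with differences of -0.13 and 1.26. The 10 small-subunit proteins classed as mitochondria-specific, among them Mrps18b, likewise a relative of bacterial S18, had medians of 0.074 and 0.41. Mrps22, which in humans is linked to a mitochondrial disease, measured 9.79 and 9.59 in mouse 1 and 9.48 and 9.79 in mouse 2.

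By structure, 43 tested members belong to the large and 25 to the small subunit, and the 2 sets did not part: their medians were -0.024 and -0.037 in mouse 1 and 0.72 and 0.74 in mouse 2. No test was made of this difference. Mrpl55, a large-subunit protein left out of both origin classes, measured 8.66 and 8.50 in mouse 1 and 7.68 and 9.08 in mouse 2, lower in large tumours of mouse 1 and higher in those of mouse 2.

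The 3 relatives of bacterial S18 had differences of several sizes. Mrps18a, which structures place in the large subunit, measured 10.13 and 10.08 in mouse 1 and 9.05 and 10.22 in mouse 2, with a difference in mouse 2 of 1.18. Mrps18b, in the small subunit, gave 10.53 and 10.64 in mouse 1 and 10.18 and 10.68 in mouse 2 and a difference of 0.51. Its dimmer tested probes had smaller differences in mouse 2, 0.14 and 0.0085. Mrps18c, also in the small subunit, gave 10.55 and 10.46 in mouse 1 and 9.63 and 10.51 in mouse 2 and 0.87. All 3 were lowest in the small pool of mouse 2 and close to level in mouse 1.

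Members lower in large tumours of both mice were 4. Mrps27, an RNA-binding protein with pentatricopeptide repeats, had levels of 7.83 and 7.62 in mouse 1 and 7.92 and 7.45 in mouse 2, and its differences were -0.21 and -0.47. Mrpl35 measured 6.87 and 6.70 in mouse 1 and 6.97 and 6.48 in mouse 2, and its differences were -0.17 and -0.49. Mrpl9, by its brightest probe, gave 9.58 and 9.51 in mouse 1 and 9.67 and 9.29 in mouse 2. Its other tested probe gave 8.83 and 8.57 in mouse 1 but 8.67 and 8.78 in mouse 2, higher in the large tumours there. By the brightest probes of these 3 genes, both large pools were below both small pools. The small pool of mouse 2 was their highest array, the reverse of most members. Their adjusted p by limma was 0.764, 0.775 and 0.85. Mrps2, the fourth, gave 7.72 and 7.67 in mouse 1 and 7.93 and 7.91 in mouse 2, with differences of -0.049 and -0.015 that were small in both mice.

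**Figure D3:**
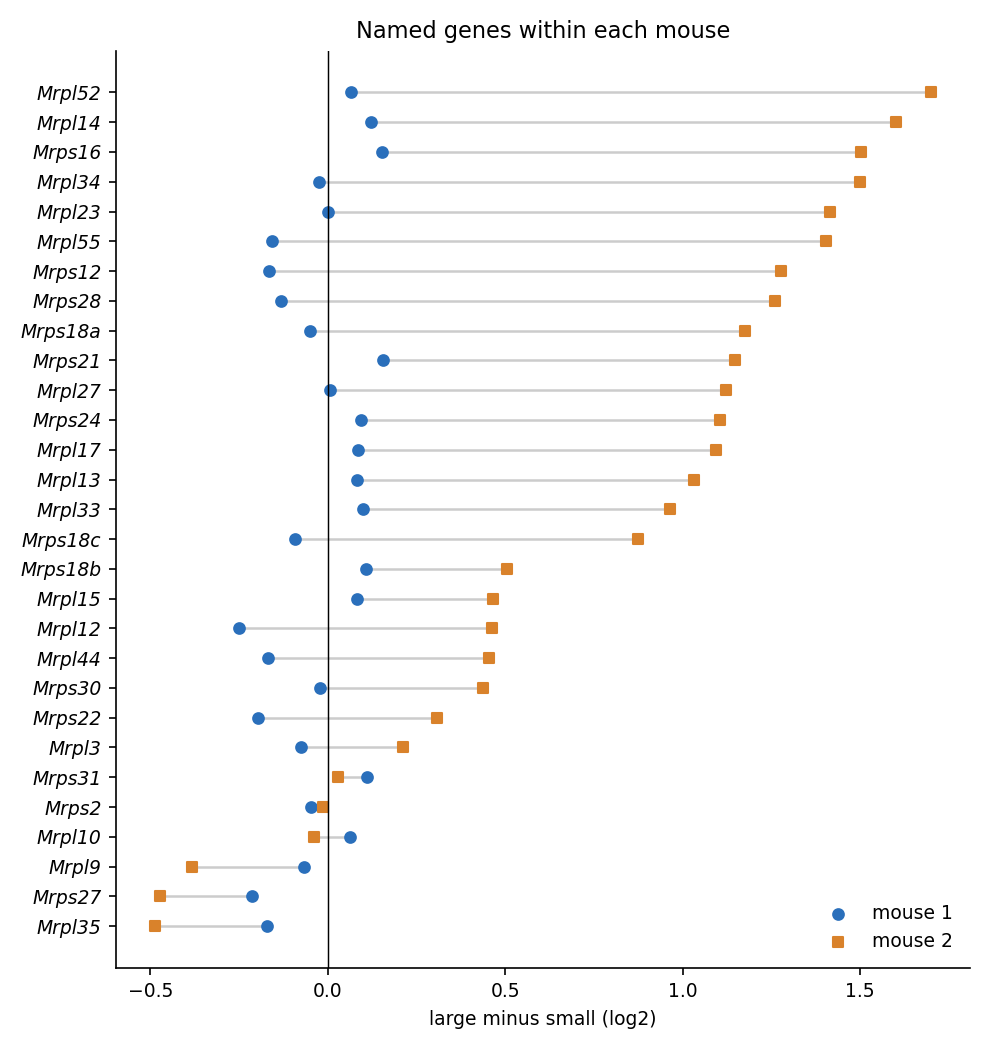
Large minus small (log2, horizontal axis) for each named member in mouse 1 (circles) and mouse 2 (squares), with a grey line joining the values of a gene. Mouse 1 values lie near 0, while mouse 2 values reach from -0.49 for Mrpl35 to 1.70 for Mrpl52.

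Where a gene had several tested probes, they pointed the same way in the mean difference for all but 4 of 26 genes. The files give each probe an Illumina transcript identifier and no sequence. Mrpl15, a large-subunit protein, had 7 tested probes, each with an identifier of its own. Its brightest measured 10.62 and 10.70 in mouse 1 and 10.28 and 10.74 in mouse 2. A dimmer one gave 8.03 and 7.45 in mouse 1 and 7.97 and 7.20 in mouse 2, lower in large tumours of both mice. At an adjusted p of 0.648, it was the member probe nearest to the threshold in limma without the block. The other Mrpl15 probes had mean differences of 0.13, -0.19, -0.043, 0.25 and 0.040. Mrpl3, which lies near the peptidyl transferase centre, had a brightest probe at 9.92 and 9.85 in mouse 1 and 9.95 and 10.16 in mouse 2 and another at 9.15 and 8.68 in mouse 1 and 9.24 and 8.51 in mouse 2. These 2 Mrpl3 probes share a transcript identifier. One more Mrpl3 probe, with another identifier, was detected on 2 arrays only. Mrps31 and Mrpl10, the latter at the base of the stalk, were nearly level by their brightest probes. That of Mrps31 measured 10.90 and 11.01 in mouse 1 and 11.07 and 11.10 in mouse 2. That of Mrpl10 measured 10.80 and 10.87 in mouse 1 and 10.89 and 10.85 in mouse 2. The dimmest tested Mrps31 probe gave 9.10 and 8.98 in mouse 1 and 9.19 and 9.07 in mouse 2. One more Mrps31 probe gave 10.40 and 10.42 in mouse 1 and 10.46 and 10.50 in mouse 2. The dimmer Mrpl10 probe gave 10.74 and 10.76 in mouse 1 and 10.62 and 10.52 in mouse 2.

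Across the 68 genes, the differences in the 2 mice were weakly related (Pearson r = 0.153, Spearman rho = 0.194). The difference in mouse 2 had a Spearman rho of 0.223 with mean level and -0.279 with the genomic span of the gene. These are descriptions over genes that share 4 arrays, with no test. The absolute difference was larger in mouse 2 than in mouse 1 for 64 of 68 members, against 68.7% of all genes.

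**Figure D4:**
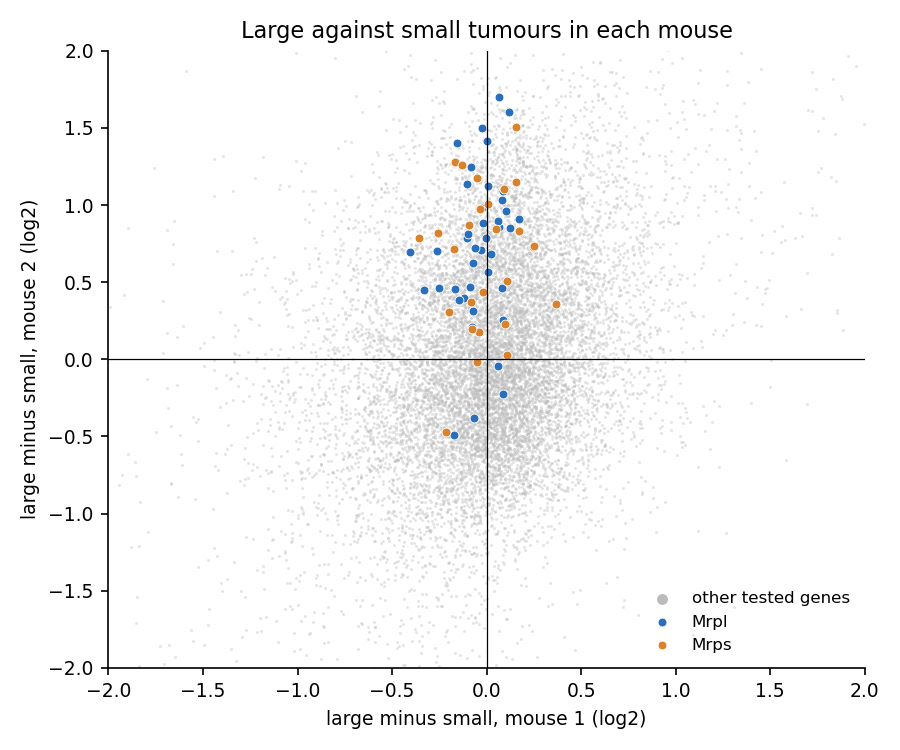
Large minus small (log2) in mouse 1 against mouse 2 for tested Mrpl, Mrps and 13838 other genes; 270 of the others lie beyond the axes, which end at 2 in each direction. The members form a band near 0 on the mouse 1 axis and are centred at 0.73 on the mouse 2 axis.

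Subunits and partners of the mitochondrial ribosome that carry other names were more mixed. Of 8 such genes, 1 was higher and 2 were lower in large tumours of both mice, with medians of -0.052 and 0.27. Mrpl58 (Ict1 in the files), a peptidyl-tRNA hydrolase built into the large subunit, measured 8.06 and 7.86 in mouse 1 and 7.12 and 8.63 in mouse 2. Aurkaip1, a small-subunit protein, gave 11.33 and 11.19 in mouse 1 and 10.11 and 11.21 in mouse 2. Dap3, the GTP-binding protein of the small subunit, gave 11.44 and 11.63 in mouse 1 and 11.62 and 11.82 in mouse 2, and the pentatricopeptide protein Ptcd3 8.04 and 7.93 in mouse 1 and 8.55 and 8.17 in mouse 2. The first pair had the low value in the small pool of mouse 2, and Dap3 and Ptcd3 did not.

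Lists of genes around the mitochondrial ribosome did not share one pattern. The list of mitochondrial tRNA synthetases, which charge the tRNAs this ribosome reads, held 22 tested genes. Their medians were -0.019 in mouse 1 and -0.32 in mouse 2, and the small pool of mouse 2 was lowest for 1 of them. The list holds Gars and Kars, which serve the cytosol as well, and Qars, the cytosolic enzyme. It also holds Qrsl1, Gatb, Gatc and Mtfmt, which are not synthetases and act on tRNAs already charged. Mars2, the methionine enzyme, gave 7.14 and 6.63 in mouse 1 and 7.93 and 7.33 in mouse 2. The 10 translation factors had medians of -0.041 and 0.087, and Gfm1, an elongation factor, gave 7.68 and 7.42 in mouse 1 and 8.51 and 7.69 in mouse 2. The 18 genes of ribosome assembly and rRNA modification had 0.031 and 0.11. Among them Malsu1, which binds Mrpl14, gave 10.01 and 9.82 in mouse 1 and 8.81 and 9.87 in mouse 2. The list of mitochondrial transcription and RNA processing (16 genes) had -0.00012 and -0.39. It also holds Polg, Polg2, Twnk and Ssbp1, which serve the replication of mitochondrial DNA. Lrpprc, an mRNA-stabilising protein, measured 8.16 and 7.74 in mouse 1 and 9.01 and 7.59 in mouse 2. Slirp, its partner, gave 10.46 and 10.49 in mouse 1 and 9.49 and 10.56 in mouse 2.

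The 9 tested regulators had medians of -0.34 and -0.64, and 5 of them were lower in large tumours of both mice with 0 higher in both. Ppargc1b, a coactivator of mitochondrial genes, measured 8.15 and 7.40 in mouse 1 and 8.63 and 7.83 in mouse 2. Gabpa gave 6.49 and 5.87 in mouse 1 and 7.43 and 6.72 in mouse 2, Nrf1 8.78 and 8.99 in mouse 1 and 9.53 and 8.91 in mouse 2 and Myc 5.49 and 5.62 in mouse 1 and 6.92 and 5.31 in mouse 2. For these 4 the small pool of mouse 2 was the highest array. No gene of these 6 lists passed limma with or without the block.

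The 72 tested subunits of oxidative phosphorylation, of which the mitochondrially encoded partners are made on this ribosome, had medians of -0.13 in mouse 1 and 0.70 in mouse 2. The small pool of mouse 2 was lowest for 57 of them, 79.2%. The 62 tested cytosolic ribosomal proteins had 0.069 and 0.52, were higher in both mice in 41 cases, and were lowest in the small pool of mouse 2 in 53, or 85.5%. Probes of these families can read processed pseudogenes or close copies. In small tumours, the medians of mouse 2 minus mouse 1 were -0.65 for oxidative phosphorylation and -0.35 for cytosolic ribosomal proteins, beside -0.60 for the mitochondrial ribosome. In large tumours they were 0.17, 0.045 and 0.16. No gene of either list passed limma with or without the block.

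**Figure D5:**
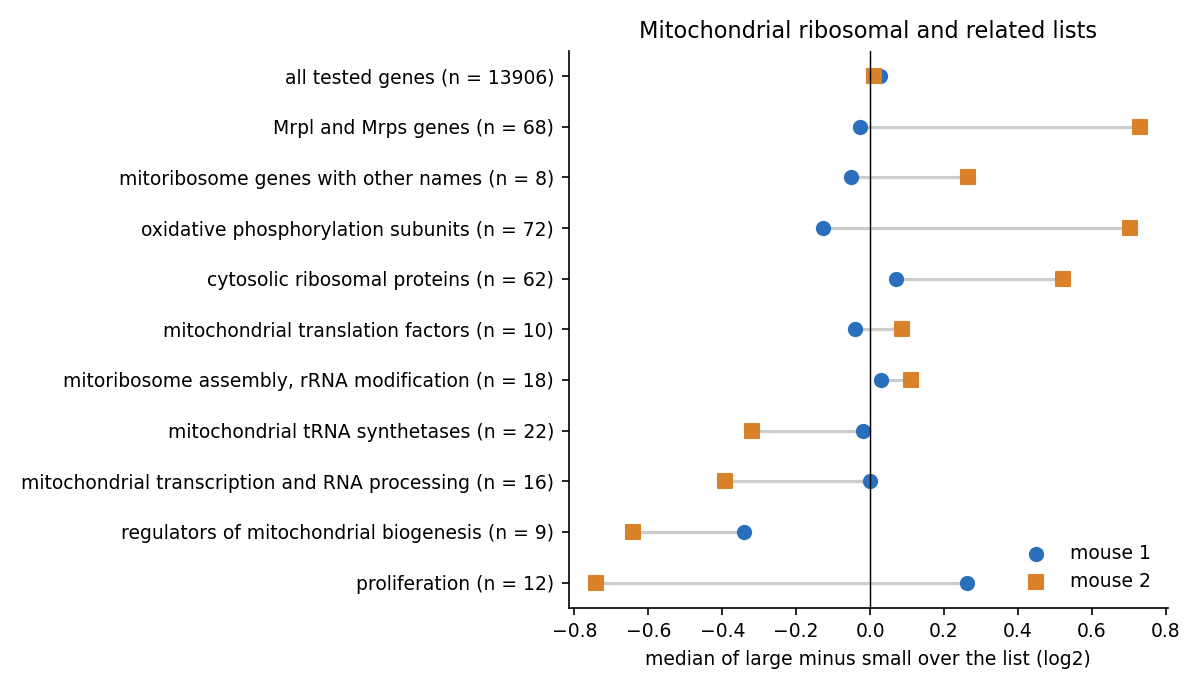
Median difference between large and small tumours (log2) in mouse 1 and mouse 2 for all tested genes, the mitochondrial ribosomal proteins, the related lists and the proliferation markers; circles are mouse 1 and squares mouse 2. The mitochondrial ribosome, oxidative phosphorylation and cytosolic ribosomal lists lie above 0 in mouse 2, and the synthetase, transcription and regulator lists below it.

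Markers of cell types differed between the pools as well. Summed intensities are given in the order small and large of mouse 1, then small and large of mouse 2. The 12 proliferation markers summed to 8960, 11200, 14700 and 9520, so their sum was highest in the small pool of mouse 2. For 2 of the 12, Cdk1 and Birc5, that pool was the lowest array. The 7 tested enterocyte markers summed to 30900, 18200, 62100 and 40800. Fibroblast markers (8) gave 7700, 12500, 3320 and 5680, neutrophil markers (4) 1020, 3210, 459 and 4050, and macrophage markers (6) 4070, 2960, 1160 and 1660. Smooth muscle markers (4) gave 9200, 10400, 3650 and 5380, endothelial markers (4) 634, 954, 589 and 1180, Paneth cell markers (4) 55100, 55300, 51700 and 55900, and the 1 tested pancreas marker, Cela1, 1210, 2110, 625 and 3320. For these 7 lists the sum was lowest in the small pool of mouse 2. Counted by gene, that pool was lowest for 7 fibroblast, 5 macrophage, 3 neutrophil, 3 Paneth cell, 2 smooth muscle and 1 endothelial marker, and for Cela1. With the block, 2 fibroblast and 3 neutrophil genes passed limma. Markers of Wnt-active tumour epithelium (8) gave 8010, 15600, 11300 and 13600, lowest in the small pool of mouse 1. Goblet cell markers (6) gave 35800, 32000, 24300 and 23400, and T cell markers (3) 549, 228, 261 and 173, both lowest in the large pool of mouse 2. The 2 tested B and plasma cell markers gave 1730, 830, 941 and 907. Epithelial markers (10) gave 56600, 50200, 66000 and 53500; Vil1, Krt18 and Krt20 were high in every pool, while the Epcam probe lay at 4.53 to 5.27 on the log2 scale. For the lists not yet counted by gene, the small pool of mouse 2 was lowest for 4 Wnt-active, 3 goblet cell, 2 epithelial and 1 T cell marker. It was lowest for 0 enterocyte and 0 B and plasma cell markers, and for 34.7% of all genes. The part of cell composition in the lower mitochondrial ribosomal protein levels of that pool was not tested. The median standard error over beads of tested member probes was 3.88% and 3.81% of the signal in mouse 1 and 4.53% and 5.20% in mouse 2.

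Promoters in the RefSeq table were available for 64 of the 73 genes, 60 of them tested. The ETS letters were held by 24 of 64 members (37.5%), against 18.7% of the 9266 tested genes with a promoter and 9.93% of all 27025 genes with one. The YY1 letters were held by 12 (18.8%), against 8.1% and 7.28%. The NRF1 letters were held by 8 (12.5%), against 5.54% and 3.05%. The E-box was held by 5 (7.81%), against 11.6% and 8.09%. At least 1 of the motifs occurred in 37 members, 57.8%, and in 36.9% of tested genes. ETS and YY1 letters can share bases, but did so in 0 members. In mouse 2, the 23 tested members with the ETS letters had a median difference of 0.87 and the 37 without it 0.70. For YY1 the medians were 0.85 (11 genes) and 0.72 (49 genes), and for NRF1 0.69 (7 genes) and 0.73 (53 genes). For the E-box they were 0.85 (5 genes) and 0.71 (55 genes). These are descriptions of letters in a window, and the differences between sets were not tested.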

How the data were processed

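The scanner table held, per the file headers, linear bead intensity exported by the authors (BSGX version 3.2.6) with no normalization or background subtraction, a standard error over beads and a deposited detection p-value. The submitters' processing notes name BeadStudio. The authors' matrix of normalized intensity for 15274 probes, 102 of them members, was used as an alternative; its normalization method is not stated in the sources used here. Background correction and normalization used limma's neqc (limma 3.58.1, R 4.3.3; normexp with the background from detection p-values, offset 16, quantile normalization, log2). Testing was limited to the 20214 probes (13906 genes) detected, at a p under 0.05, on 2 or more of the 4 arrays, and a gene was its tested probe with the highest mean. The number of arrays limits the precision.

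Large and small tumours were compared with lmFit and eBayes (two-sided, Benjamini-Hochberg over all tested probes, adjusted p under 0.05), with 2 residual degrees of freedom. The labels tie each small pool to a large pool of its own animal; deviations from group means correlated at r = 0.251 within animals, and an alternative fit blocked on the mouse, with 1 residual degree of freedom. Without it p-values rest on the spread between 2 animals. Other alternatives were no background correction, offset 50, median scaling, no or a stricter filter, the mean over a gene's probes, and each pool left out. The members and lists were chosen with earlier results of these data known. Genes named were up to 8 per direction with the same sign in both mice and the largest mean difference, 4 with opposite signs and the widest gap, the 4 brightest, those whose probes disagreed, and others picked for their roles; Mrps36 was not analysed here. Malsu1, Slirp, Nrf1, Gabpa, Myc, Mrpl58 and Aurkaip1 were named after their values were seen. Symbols follow the files, updated through RefSeq names of GRCm38.p6.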

Additional observations from a re-analysis of the deposited data

How the results depend on the processing

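No member probe passed the threshold in any alternative, and the smallest adjusted p among the named genes over the alternatives was 0.142 (limma). With the mouse as a replicate block 120 probes passed, 68 higher and 52 lower in large tumours, against 0 without it, and the block changed no call of a member. Median scaling gave 2 probes, and leaving out one pool gave 0 to 70, with 70 without the large pool of mouse 1 and 19 without that of mouse 2. Each of these fits leaves 1 array of a size, which is assumed to vary like the 2 arrays of the other size, so these counts rest on the spread of that other size. The member median was -0.050 to -0.021 in mouse 1 and 0.67 to 0.73 in mouse 2 over the settings of background, normalization, filter and probe choice, and the median over both mice was 0.28 to 0.36. Alternatives chosen after seeing the data left out each pool, so the 1 array left of a size was set against both arrays of the other size. These contrasts mix tumour size with animal. The median of 0.35 became 0.081 without the small pool of mouse 2 and 0.64 without that of mouse 1. It was 0.43 without the large pool of mouse 1 and 0.28 without that of mouse 2. Members higher in both mice numbered 20 under median scaling against 27. Of 319 values of the 29 named genes, 304 kept their direction and 15 did not. Under median scaling these were Mrpl10 (-0.019) and Mrps22 (-0.013). The others came with a pool left out, which put the difference of Mrpl10 between -0.032 and 0.054, Mrpl12 between -0.086 and 0.30, Mrpl3 between -0.088 and 0.22, Mrpl44 between -0.036 and 0.32, Mrps18c between -0.070 and 0.85, Mrps2 between -0.15 and 0.089, Mrps22 between -0.098 and 0.21, Mrps28 between -0.022 and 1.15, Mrps30 between -0.0062 and 0.42 and Mrps31 between -0.014 and 0.15. The low values came without the small pool of mouse 2 for Mrps18c, Mrps22 and Mrps28, without the large pool of mouse 2 for Mrpl12, Mrpl3, Mrpl44 and Mrps30, and without the small pool of mouse 1 for Mrpl10 and Mrps31. Mrps2, lower in large tumours in the main setting, was above 0 without the large pool of mouse 1 or the small pool of mouse 2. The cause was not tested. With 4 arrays, 2 animals and pooled tumours, an animal's tumours and its arrays cannot be told apart.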
